A study of Mus musculus with 17 samples.

Results

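The renin-angiotensin genes described here are 9 of 42794 genes in a mouse kidney RNA sequencing table, and were chosen by name: Ren1, Agt, Ace, Agtr1a, Agtr1b, Mas1, Enpep, Mme and Anpep. Each name matched 1 gene. The study concerns glucagon and fat synthesis in proximal tubule epithelial cells, and its 17 libraries fall into 3 groups. The control group (n = 4) has the genotype label WT and titles that begin with NC. The Ctr shRNA group (n = 6) has titles that read DKD Vehicle, so the labels leave unclear whether these kidneys carried a control hairpin or a vehicle alone. The third group (n = 7) has the genotype label Gcgr shRNA, for a hairpin meant to lower the glucagon receptor in proximal tubule cells. DKD (diabetic kidney disease) stands in the titles of both shRNA groups, which are called disease-labelled below. Control titles carry no such mark and no hairpin is named for them. Strain, sex, age, the way the disease was produced, the promoter and carrier of the hairpin and any pooling of animals are not stated in the labels used here. No label names the animal behind a library, so the p-values below set differences against the spread between these libraries, which may be technical. Libraries are named by group and by the number in their title.

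The renin-angiotensin system is a peptide cascade that controls blood pressure, sodium retention and the tone of glomerular arterioles. Renin, made by juxtaglomerular cells of the afferent arteriole, cuts angiotensinogen to angiotensin I, and angiotensin converting enzyme turns that into angiotensin II, which acts through type 1 receptors. Other peptidases, many of them on the proximal tubule brush border, shorten these peptides to forms with other receptors or to inactive fragments.

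Values are FPKM (fragment counts scaled by gene length and library size), so levels can be compared between genes per length. Fold changes and their tests are on the log2(FPKM + 1) scale with limma over 13279 genes that reached 1 FPKM in at least 4 libraries, with Benjamini-Hochberg adjustment over all of them and a threshold of 0.05. Of the 9 members 7 passed this filter. Agtr1b and Mas1 did not. Libraries held 13997657 to 17107876 reads as recovered from the FPKM steps. The library size used in the scaling was 0.949 to 1.15 times these reads. It was highest in Ctr shRNA 20, whose values are lowered most by it. Gcgr, the target of the hairpin, averaged 20.8 ± 2.42 FPKM in the 4 control libraries (SD). It averaged 9.74 ± 2.14 in the 6 of Ctr shRNA and 13.0187 ± 1.70 in the 7 of the third group. The third group differed in Gcgr from Ctr shRNA by 0.40 ± 0.12 on the log2 scale (SE; limma, adjusted p = 0.413), and these groups overlapped. From control it differed by -0.64 ± 0.14 (adjusted p = 0.0238). Ctr shRNA differed from control by more, at -1.04 ± 0.14 (limma, adjusted p = 0.000437). In the third group a level below that of Ctr shRNA was thus not seen, so its members are called the libraries labelled Gcgr shRNA. The level in proximal tubule cells alone cannot be read from whole kidney. Gm11789, a gene on the other strand at a mean of 2.09 FPKM, overlaps Gcgr. Without a stated use of strand the reads of these genes cannot be told apart. Ctr shRNA 20 stood apart. Its summed FPKM of 5 fat markers was 121.7, against at most 14.6 in the other libraries, and that of 5 urothelial markers 170.3, against at most 9.97. It had the lowest value of its group for 5 of 8 members (Ren1, Agt, Ace, Mme and Anpep, with Agtr1b not counted), and for 29.1% of all tested genes. Some of the results that rest on it are given below with and without it. Without Ctr shRNA 20 the mean of its group was 10.5 FPKM for Gcgr and 23.3 FPKM for Ren1.

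Agt and Ace changed in opposite directions in Ctr shRNA, and the 250 bases before their start sites are shown for that reason, from RefSeq on GRCm38.p6. They read 5′ to 3′ on the gene's strand, at chr8:124569707-124569956 (minus strand) for Agt and chr11:105967698-105967947 (plus strand) for the first of 2 Ace start sites. Capitals mark the letters TATAAA, the core of a TATA box, on either strand.
Agt: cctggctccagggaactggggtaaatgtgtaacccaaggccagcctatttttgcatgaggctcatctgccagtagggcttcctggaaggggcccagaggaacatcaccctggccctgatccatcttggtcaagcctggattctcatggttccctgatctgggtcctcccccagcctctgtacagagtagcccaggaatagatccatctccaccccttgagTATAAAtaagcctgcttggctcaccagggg
Ace: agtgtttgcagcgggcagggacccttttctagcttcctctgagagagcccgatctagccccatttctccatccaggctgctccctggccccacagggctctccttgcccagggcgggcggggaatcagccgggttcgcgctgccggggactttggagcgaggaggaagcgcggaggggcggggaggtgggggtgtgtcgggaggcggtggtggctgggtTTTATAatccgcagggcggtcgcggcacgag
The match began 30 bases before the start of Agt. In Ace the match lay on the opposite strand and is therefore seen as TTTATA, from 31 bases before the start. RefSeq windows were found for 8 of 9 members (not Agtr1a), with 11 start sites in all, and 5 of those 11 windows held the letters on either strand, against 12.4% of 32851 windows of the same length. On the gene's own strand only the windows of Ren1, Agtr1b and Agt held them, against 7.59% of all windows. Windows of the same gene can share bases, as for Mme. A match is a string of letters in the window and was not tested as a binding site.

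Angiotensinogen, the only known precursor of the angiotensins, is made in liver and, within the kidney, by proximal tubule cells. Its gene Agt (ENSMUSG00000031980, GRCm38 chromosome 8, 124556534 to 124569706) was the most abundant member in both disease-labelled groups. In control 37, 38, 39 and 41 Agt gave 49.8, 37.4, 45.1 and 63.3 FPKM. The Ctr shRNA libraries ran from 49.5 through a median of 92.97 to 143.1 FPKM. The libraries labelled Gcgr shRNA ran from 63.2215 through a median of 72.5 to 106.8 FPKM. The 5 Ctr shRNA libraries other than 20 all lay above every control library, with 84.99 FPKM as their lowest, and the lowest library labelled Gcgr shRNA lay just under control 41. Means were 48.9 ± 10.9 FPKM in control, 95.5 ± 30.998 in Ctr shRNA and 79.5 ± 16.03 across libraries labelled Gcgr shRNA (SD). Agt rose in Ctr shRNA against control by 0.91 ± 0.23 on the log2 scale (SE; limma, adjusted p = 0.0219), a 1.95-fold ratio of the FPKM means. Without Ctr shRNA 20 the difference was 1.08 (adjusted p = 0.00227), and the call ended without control 37, 38 or 39 (adjusted p = 0.0548, 0.0893 and 0.0713), with only these 2 groups fitted (0.0585391) or without the filter on low values (0.0585207). The libraries labelled Gcgr shRNA stood 0.69 ± 0.22 above control and missed the threshold (adjusted p = 0.124), and passed in 4 alternatives: without Ctr shRNA 20 (adjusted p = 0.0400), without Ctr shRNA 20 and Gcgr shRNA 31 (0.0333), with only these 2 groups fitted (0.0392) and with array weights (0.0119). Their difference from Ctr shRNA was -0.22 ± 0.20 (limma, adjusted p = 0.860), or -0.39 without Ctr shRNA 20 (adjusted p = 0.585).

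Renin itself, encoded by Ren1 (ENSMUSG00000070645, chromosome 1, 133350510 to 133360325), varied more from library to library than any other tested member. In control 37, 38, 39 and 41 it gave 6.90, 17.7, 23.9 and 27.5 FPKM. Ctr shRNA libraries ran from 7.53 through a median of 15.7 to 39.98 FPKM, and the libraries labelled Gcgr shRNA from 7.45 through a median of 20.2 to 51.4 FPKM. The 3 groups overlapped: their lowest values were close together, and 2 Ctr shRNA libraries and 2 of those labelled Gcgr shRNA lay above the highest control. The highest value over the lowest was 3.98 in control, 5.31 in Ctr shRNA and 6.90 across libraries labelled Gcgr shRNA, where Ace, for comparison, had ratios of 1.20, 2.01 and 1.81. Means were 18.98 ± 9.01, 20.7 ± 13.8 and 23.9 ± 13.7 FPKM (SD). The log2 difference of Ctr shRNA from control was 0.02, with a 95% interval of -1.02 to 1.07 (adjusted p = 0.985). Changes of up to about 2-fold either way lie within that interval and are not excluded. The difference turned to -0.37 without control 37, the lowest control library, to -0.18 without Ctr shRNA 1 and to -0.21 without Ctr shRNA 4. The libraries labelled Gcgr shRNA differed from Ctr shRNA by 0.27 (interval -0.63 to 1.17, adjusted p = 0.919) and from control by 0.29 (interval -0.72 to 1.31, adjusted p = 0.812). Reads for Ren1 numbered 162 to 1389 per library, so the spread between libraries, not the number of reads, sets this interval. Some mouse strains carry a second, nearly identical renin gene, Ren2, whose reads would fall on Ren1, and since no strain is given the 2 cannot be told apart.

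Markers of juxtaglomerular and smooth muscle cells were set beside Ren1. The list of 10 included the renin cell gene Akr1b7 and the contractile genes Acta2 and Myh11. Their summed FPKM ran from 27.4 to 37.9 in control and 19.996 to 65.7 in Ctr shRNA. Across libraries labelled Gcgr shRNA it ran from 16.1 to 34.8. Akr1b7 had group means of at most 0.651 FPKM, while Acta2 alone gave 30.2 FPKM in Ctr shRNA 20. The sum therefore says little about the cells that make renin. The 2 measures were opposed at the extremes of Ctr shRNA and together at those of the other disease-labelled group. Ctr shRNA 20 had the highest sum and 7.53 FPKM of Ren1, the lowest in its group. Ctr shRNA 4 had the lowest sum of its group, 19.996, and its highest Ren1, 39.98 FPKM. Among the libraries labelled Gcgr shRNA both measures were highest in library 31 (34.8 summed and 51.4 FPKM of Ren1) and lowest in library 32 (16.1 and 7.45). By limma 0 of the 7 tested markers of this list passed in any of the 3 comparisons, and none of the 10 was at 0 throughout a group. The part of these cells in the spread of Ren1 was not tested.

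**Figure D1:**
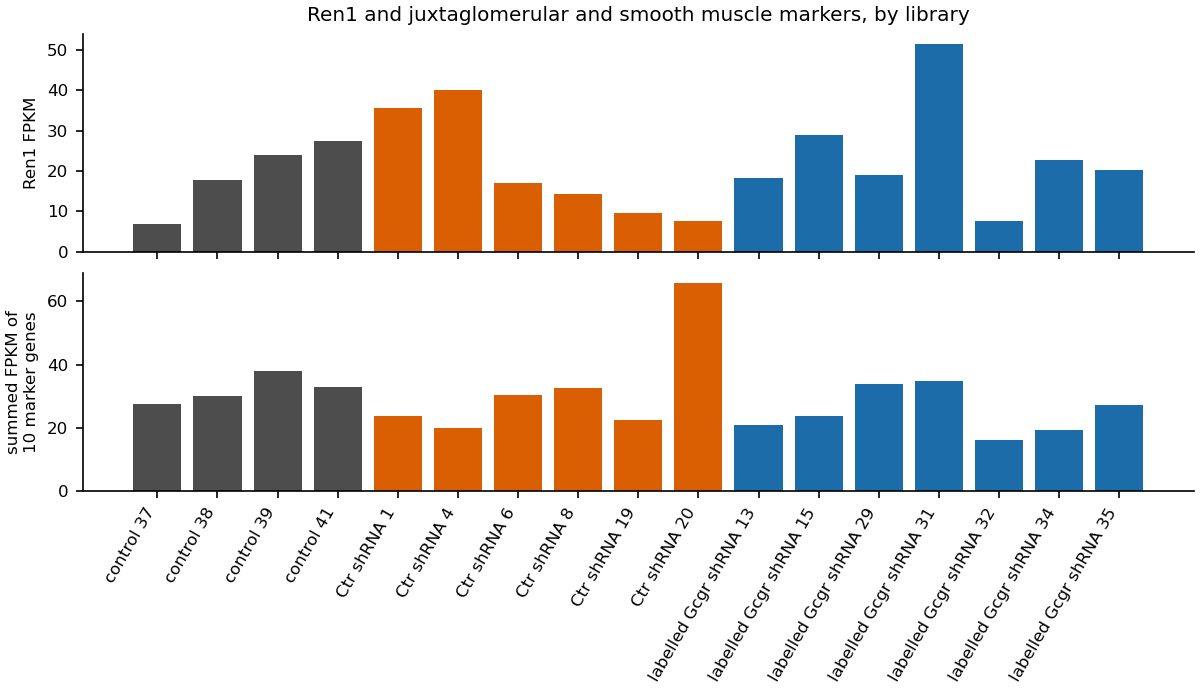
Ren1 FPKM (top) and the summed FPKM of 10 juxtaglomerular and smooth muscle markers (bottom) in each of 17 libraries, coloured by group (grey control, orange Ctr shRNA, blue labelled Gcgr shRNA). Bars start at 0. Ctr shRNA 20 has the tallest marker bar, 65.7, with a Ren1 of 7.53 FPKM.

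Angiotensin converting enzyme sits on endothelium and on the proximal tubule brush border. Its gene Ace (ENSMUSG00000020681, chromosome 11, 105967945 to 105989964) was the most abundant member in control and showed the largest difference of any tested member. Ace in control 37, 38, 39 and 41 gave 66.996, 76.6, 71.7 and 63.8 FPKM. Ctr shRNA libraries ran from 20.97 through a median of 29.6 to 42.1 FPKM, and the libraries labelled Gcgr shRNA from 31.4 through a median of 39.99 to 56.7 FPKM. All 13 disease-labelled libraries lay below all 4 control libraries, while the 2 disease-labelled groups overlapped. Means were 69.8 ± 5.58 FPKM in control, 30.5 ± 6.81 in Ctr shRNA and 43.1 ± 8.57 across libraries labelled Gcgr shRNA (SD). Ace fell in Ctr shRNA against control by 1.19 ± 0.16 on the log2 scale (SE; limma, adjusted p = 0.000391), to 0.437 times the control mean, and this call held in 28 of 28 alternative analyses (adjusted p up to 0.00269). It also fell in the libraries labelled Gcgr shRNA against control, by 0.70 ± 0.16 (adjusted p = 0.0249), to 0.617 times the control mean. That second call ended without control 37, 38 or 39 or Gcgr shRNA 35 (adjusted p = 0.0709, 0.105, 0.0951 and 0.0507) and without the filter on low values (0.0662). Both comparisons use the same 4 control libraries.

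Between the disease-labelled groups, the libraries labelled Gcgr shRNA exceeded Ctr shRNA in Ace by 0.49 ± 0.14 (log2 scale, SE), with an unadjusted p = 0.00254 that became adjusted p = 0.332 over all genes. The 95% interval of that difference ran from 0.20 to 0.78. Mme, described below, was 0.37 ± 0.13 higher (adjusted p = 0.480). For both genes Ctr shRNA 20 had the lowest value of its group. Without that library the differences were smaller, at 0.39 for Ace and 0.25 for Mme. With all libraries kept, 0 of 7 tested members passed by limma between the disease-labelled groups, and 0% of all 13279 tested genes. An unadjusted p under 0.05 was reached by 2 members (Ace and Mme) and by 7.32% of all tested genes. With limma voom on the recovered reads 0 members passed, against 0.00753% of all tested genes.

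Some markers of the proximal tubule fell where Ace fell. Of 12 such markers, all tested, 6 fell in Ctr shRNA against control, 0 rose and 6 did not pass. Of all tested genes 3.91% fell and 3.58% rose there. In the libraries labelled Gcgr shRNA against control 1 fell, where 0.595% of all did. Between the disease-labelled groups 0 of the 12 had an unadjusted p under 0.05 (7.32% of all tested genes had), with 9 differences above 0 and 3 below. Their summed FPKM was 4827 to 5689 in control, 3083 to 4585 in Ctr shRNA and 3469 to 4540 across libraries labelled Gcgr shRNA, and none of the 12 was at 0 throughout a group. Of 10 endothelial markers 0 passed in any comparison, and their summed FPKM was 63.9 to 68.8 in control, 49.4 to 117.1 in Ctr shRNA and 60.2 to 74.3 across libraries labelled Gcgr shRNA, with none at 0 throughout a group. In whole kidney, fewer cells of a type and less RNA per cell cannot be told apart. The part of tubule markers in the fall of Ace was not tested.

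Angiotensin II acts mainly through the type 1a receptor in mouse kidney, where tubule, vascular and mesangial cells carry it. Agtr1a (ENSMUSG00000049115, chromosome 13, 30336441 to 30382867) gave 11.6, 12.4, 11.1 and 8.71 FPKM in control 37, 38, 39 and 41. Ctr shRNA ran from 6.65 through a median of 8.78 to 10.1 FPKM, and the libraries labelled Gcgr shRNA from 8.06 through a median of 8.52 to 9.60 FPKM. Of the control libraries 3 lay above all 13 disease-labelled ones, and control 41 lay among them. Means were 10.9 ± 1.57, 8.38 ± 1.45 and 8.63 ± 0.540 FPKM (SD). The difference of Ctr shRNA from control was -0.35 ± 0.11 (log2 scale, SE; adjusted p = 0.0571), just short of the threshold. It passed without control 41 at -0.45 (adjusted p = 0.0230), and also without Ctr shRNA 6 or 19 (adjusted p = 0.0343 and 0.0429). With all 17 libraries kept it passed at a mean of 5 FPKM or more, with quantile normalization and with array weights (adjusted p = 0.0219 to 0.0468). The libraries labelled Gcgr shRNA differed from control by -0.30 ± 0.11 (adjusted p = 0.164) and from Ctr shRNA by 0.05 ± 0.09 (adjusted p = 0.936). Their difference from control passed with array weights (adjusted p = 0.0294).

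The second type 1 receptor gene of rodents, Agtr1b (ENSMUSG00000054988, chromosome 3, 20314473 to 20367177), was at the edge of detection. Reads totalled 2 in control, 3 in Ctr shRNA and 4 over the libraries labelled Gcgr shRNA, with 2, 4 and 4 libraries of these groups at 0. The highest value was 0.0571 FPKM. No fold is given for so few reads, and since Agtr1a and Agtr1b are closely similar, reads assigned to either are uncertain. Mas1, the receptor for angiotensin (1-7) (ENSMUSG00000068037, chromosome 17, 12841079 to 12868143), was at 0.421 ± 0.135 FPKM in control, 0.368 ± 0.176 in Ctr shRNA and 0.326 ± 0.107 across libraries labelled Gcgr shRNA (SD), from 6 to 26 reads per library. The 3 groups overlapped. In a fit without the filter on low values its differences had adjusted p from 0.807 to 0.928. Airn, a long RNA on the other strand at a mean of 1.48 FPKM, overlaps Mas1, and without a stated use of strand their reads cannot be told apart.

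The 3 remaining members shorten angiotensin peptides at the cell surface, and by the test neprilysin alone changed, in Ctr shRNA. Neprilysin, encoded by Mme (ENSMUSG00000027820, chromosome 3, 63241537 to 63386030), cuts angiotensin I to angiotensin (1-7) and is found on the brush border and on podocytes. Control 37, 38, 39 and 41 gave 13.4, 13.02, 13.09 and 16.1 FPKM. Ctr shRNA ran from 4.87 through a median of 8.10 to 11.4 FPKM, and the libraries labelled Gcgr shRNA from 9.09 through a median of 10.4 to 12.4 FPKM. As with Ace, every disease-labelled library lay below every control library. Means were 13.9 ± 1.499, 8.07 ± 2.15 and 10.5 ± 1.20 FPKM (SD). Mme fell in Ctr shRNA against control by 0.75 ± 0.15 on the log2 scale (SE; limma, adjusted p = 0.00561), to 0.580 times the control mean, and by 0.63 without Ctr shRNA 20 (adjusted p = 0.00347). The call held in 28 of 28 alternatives. The difference of the libraries labelled Gcgr shRNA from control was -0.38 ± 0.14 and missed the threshold (adjusted p = 0.199), although the groups did not overlap. It passed with only those 2 groups fitted (adjusted p = 0.0410) and with array weights (0.0306). Of 6 tested podocyte markers 0 passed in any comparison.

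Enpep (ENSMUSG00000028024, chromosome 3, 129269175 to 129332720) encodes aminopeptidase A, which turns angiotensin II into angiotensin III. Control 37, 38, 39 and 41 gave 19.9, 22.4, 21.5 and 19.97 FPKM. Ctr shRNA ran from 20.1 through a median of 24.9 to 30.9 FPKM, and the libraries labelled Gcgr shRNA from 19.1 through a median of 23.4 to 25.6 FPKM. The groups overlapped, and the difference of Ctr shRNA from control was 0.21 ± 0.10 (log2 scale, SE; adjusted p = 0.217). Anpep (ENSMUSG00000039062, chromosome 7, 79821803 to 79861059) encodes aminopeptidase N, which takes angiotensin III on to angiotensin IV. Control 37, 38, 39 and 41 gave 43.7, 46.2, 39.6 and 37.5 FPKM. Ctr shRNA ran from 31.3 through a median of 46.8 to 60.4 FPKM, and the libraries labelled Gcgr shRNA from 32.9 through a median of 40.3 to 50.5 FPKM. The groups overlapped, and the lowest Ctr shRNA value was that of library 20, without which Ctr shRNA ran from 44.6 FPKM up. The difference of Ctr shRNA from control was 0.14 ± 0.14 (adjusted p = 0.608), or 0.24 without that library (adjusted p = 0.202), and that of the libraries labelled Gcgr shRNA was -0.02 ± 0.14 (adjusted p = 0.959). For Enpep the latter difference was 0.11 ± 0.10 (adjusted p = 0.615). Libraries labelled Gcgr shRNA minus Ctr shRNA gave -0.10 ± 0.09 for Enpep and -0.16 ± 0.12 for Anpep (adjusted p = 0.858 and 0.834).

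**Figure D2:**
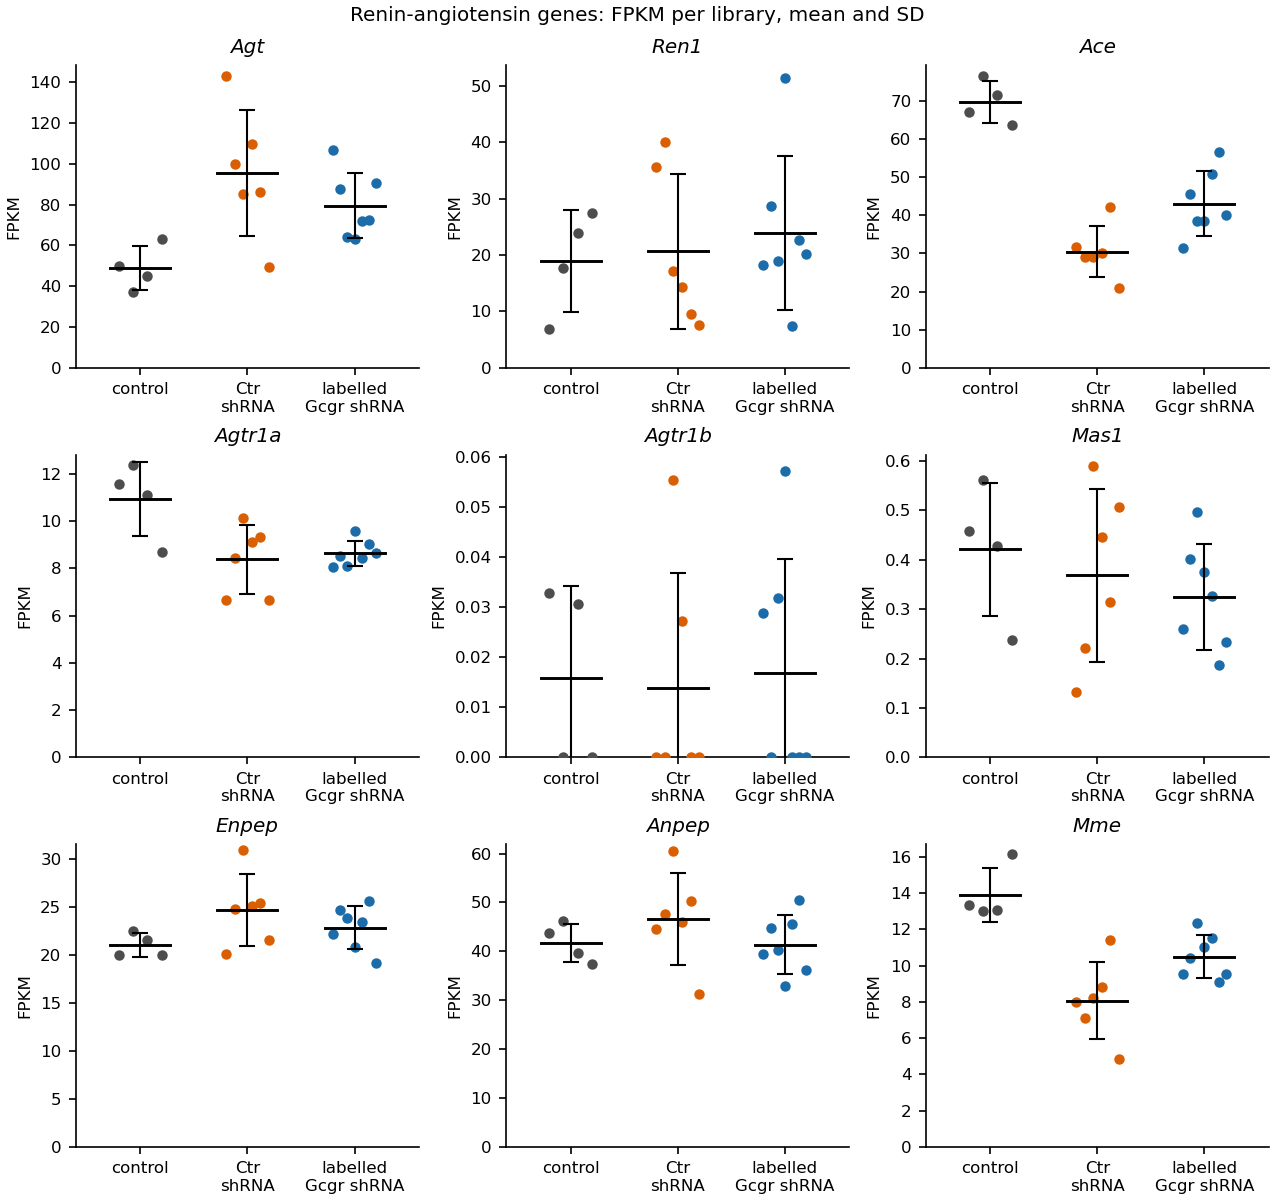
FPKM of the 9 members in each library by group, each panel with its own axis from 0. Points are libraries, horizontal lines means and error bars SD (n = 4, 6 and 7). Ace and Mme do not overlap between control and either disease-labelled group, Agt is higher in 5 of 6 Ctr shRNA libraries than in any control, and Ren1 overlaps throughout.

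Counted together, 1 of 7 tested members rose (Agt), 2 fell (Ace and Mme) and 4 did not pass in Ctr shRNA against control, where limma called 7.49% of all tested genes (3.58% higher and 3.91% lower). The median log2 fold change of the tested members was 0.02, against 0.0071 over all tested genes. In the libraries labelled Gcgr shRNA against control 1 fell (Ace) and 6 did not pass, where 2.02% of all tested genes were called (1.42% higher and 0.595% lower). An unadjusted p under 0.05 was reached there by 4 members and by 16.2% of all tested genes. The median of the members was -0.02, against -0.0049 over all. Groups did not overlap for 2 members (Ace and Mme, both lower in the disease-labelled group) in each of these 2 comparisons, where 10.1% (4.71% higher and 5.41% lower) and 5.54% (3.31% higher and 2.23% lower) of all tested genes did not overlap. In the libraries labelled Gcgr shRNA against Ctr shRNA the median was 0.05, against -0.0043 over all, and the groups overlapped for every tested member, where 0.203% of all tested genes did not overlap (0.105% higher and 0.0979% lower).

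**Figure D3:**
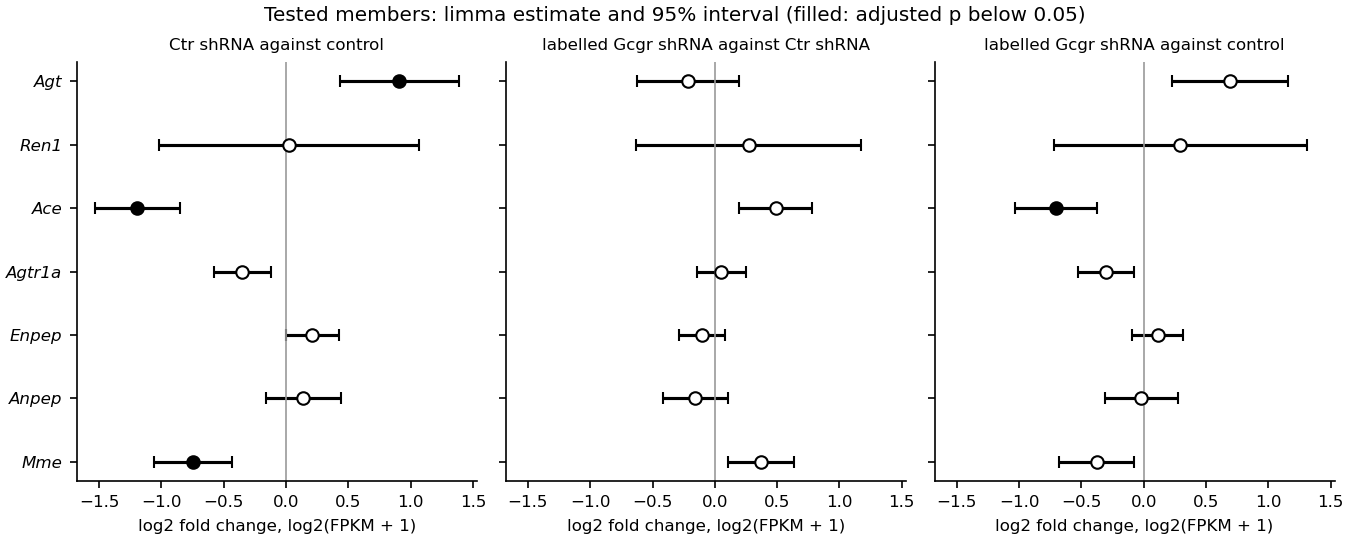
Log2 fold changes on the log2(FPKM + 1) scale of the 7 tested members in the 3 comparisons, with 95% intervals from limma. Filled points passed the threshold over all genes. Agt, Ace and Mme passed in Ctr shRNA against control, Ace in the libraries labelled Gcgr shRNA against control, and none between the disease-labelled groups.

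Further genes of the system were counted in the same way. Of 16 further genes that process, bind or receive angiotensin peptides or kinins 14 were found in the table and 11 were tested. In Ctr shRNA against control 0 rose and 1 fell (median log2 difference 0.0069), where 7.49% of all tested genes were called, so nothing is read from this count. In the other comparisons 0 passed by limma. In each of them 2 had an unadjusted p under 0.05, as did 7.32% of all tested genes in the libraries labelled Gcgr shRNA against Ctr shRNA and 16.2% in the same libraries against control. The gene that fell was Klk1, tissue kallikrein, which releases kinins in the distal nephron. Its level was 1775 ± 152 FPKM in control, 1046 ± 280 in Ctr shRNA and 1368 ± 286 across libraries labelled Gcgr shRNA (SD). Klk1 fell by 0.80 ± 0.18 in Ctr shRNA against control (log2 scale, SE; adjusted p = 0.0126), and the call ended without control 38 (adjusted p = 0.0520) and without the filter on low values (0.0697). Klk1 belongs to a family of near-identical kallikrein genes, so its reads are uncertain. Ctsa, a lysosomal carboxypeptidase named here after its values were seen, also passed once Ctr shRNA 20 was left out (0.30, adjusted p = 0.0194, against 0.26 and 0.0669 with it). The prorenin receptor gene Atp6ap2 was at 38.6 ± 2.40, 42.3 ± 3.16 and 42.8 ± 3.47 FPKM, and Agtrap, whose product binds the type 1 receptor, at 28.8 ± 1.31, 29.6 ± 3.67 and 29.1 ± 2.30 FPKM in the 3 groups (SD). The differences of Atp6ap2 and Agtrap had adjusted p of 0.340 and 0.880 in Ctr shRNA against control. The type 2 receptor gene Agtr2 and the mast cell proteases Cma1 and Cpa3 had group means of at most 0.0910 FPKM and were not tested.

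Brush-border peptidases outside the angiotensin cascade were read beside the members. Of 7 such genes, all tested, 1 rose and 1 fell in Ctr shRNA against control (median -0.15), where 3.58% of all tested genes rose and 3.91% fell. By limma 0 passed in the other comparisons. An unadjusted p under 0.05 was reached by 3 in the libraries labelled Gcgr shRNA against Ctr shRNA (7.32% of all tested genes) and by 2 against control (16.2%). Mep1b, the meprin beta subunit, fell from 75.5 ± 5.06 to 35.9 ± 16.3 FPKM (SD), by 1.16 ± 0.28 on the log2 scale (SE; adjusted p = 0.0185), and was at 50.8 ± 16.1 FPKM in the libraries labelled Gcgr shRNA. That call ended without control 37, 38 or 39 (adjusted p = 0.0523, 0.0508 and 0.0502) and without the filter on low values (0.0525). Dpp4, which trims incretins and other peptides, rose from 7.85 ± 0.532 to 10.7 ± 2.07 FPKM, by 0.38 ± 0.11 (adjusted p = 0.0423), a call that ended without any 1 of the 4 control libraries, Ctr shRNA 6, 8 or 19 or Gcgr shRNA 32 (adjusted p up to 0.121), with the fit of these 2 groups only (0.101), without the filter on low values (0.0921), when libraries were rescaled to the same summed FPKM (0.0766) and with quantile normalization (0.0591). Of 14 genes that control renin release 6 were tested, and 0 passed by limma in any comparison (1 with an unadjusted p under 0.05 in each, where 23.4%, 7.32% and 16.2% of all tested genes had one in Ctr shRNA against control, in the libraries labelled Gcgr shRNA against Ctr shRNA, and in those against control). Ptgs2 and Nos1, the macula densa enzymes among them, had group means of at most 0.157 FPKM and were not tested. For 1 of the 6 tested, the libraries labelled Gcgr shRNA all lay above Ctr shRNA, as for 0.105% of all tested genes. For 1 they all lay below control (2.23% of all). Ctr shRNA and control overlapped for all 6, where 10.1% of all tested genes did not overlap.

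**Figure D4:**
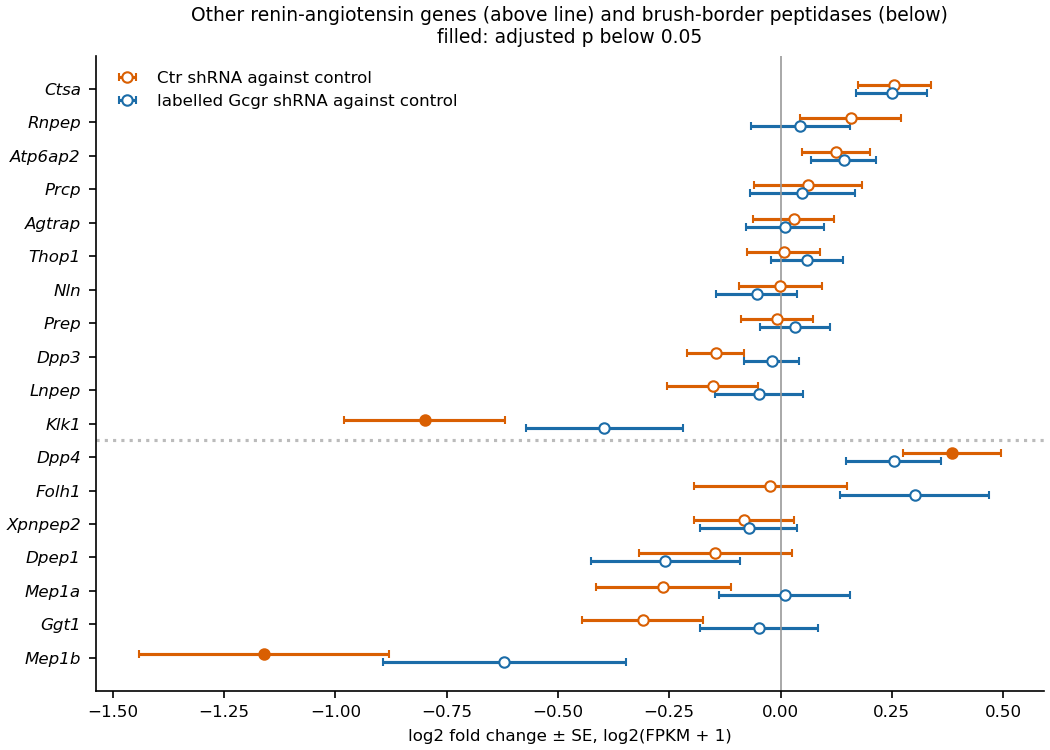
Log2 fold changes with SE on the log2(FPKM + 1) scale of 11 other renin-angiotensin genes (above the dotted line) and 7 other brush-border peptidases (below it), for Ctr shRNA against control (orange) and the libraries labelled Gcgr shRNA against control (blue). Filled points passed the threshold over all genes. Klk1, Dpp4 and Mep1b passed in Ctr shRNA against control.

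Correlations between members within groups depended on Ctr shRNA 20. With each group's mean subtracted, Pearson's r between pairs of tested members over 17 libraries ran from -0.20 to 0.78 (21 pairs, median 0.29). Without Ctr shRNA 20 it ran from -0.77 to 0.80, with a median of -0.15. The 2 aminopeptidase genes, Enpep and Anpep, had the highest r (0.78; Spearman's rho 0.80), which was 0.80 over 16 libraries without Ctr shRNA 20. For Agt without that library, r was below 0 with every tested member but Ren1 (0.17), down to -0.77 with Agtr1a (rho -0.68), where it was -0.19 with the library included. These values describe 17 libraries that share depth and scaling across genes, and no test was made.

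The genes most like each member were read the same way, as the 3 highest r over 17 libraries with group means subtracted. For Agt these were Retreg1 (r = 0.89), Babam2 (0.86) and Gdf11 (0.86), and none of the 3 was among the top 3 without Ctr shRNA 20. For Ren1 they were Blzf1 (0.84), Pxdc1 (0.81) and Syncrip (0.80), of which 2 stayed in the top 3 without that library. For Ace they were Abat (0.92), Galns (0.89) and Pi4ka (0.89), and 2 stayed. Abat and Pi4ka were the pair that stayed for Ace. For Mme they were Slco4c1 (0.94), Prps2 (0.93) and Slc22a13 (0.90), and 2 stayed. Slco4c1 and Slc22a13 encode organic anion transporters of the proximal tubule, but only Slco4c1 and Prps2 stayed for Mme. For Anpep they were Mcur1 (0.94), Shmt2 (0.93) and Dlst (0.93), for Enpep Fmnl1 (0.85), Nqo2 (0.82) and Uhmk1 (0.81), and for Agtr1a Gys2 (0.85), Pgam2 (0.84) and Slco1a6 (0.84), with 2, 2 and 1 that stayed.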

How the data were processed

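The authors deposited 1 table of FPKM values per gene and library with gene coordinates and lengths, per the file headers. The submitters' processing notes list GRCm38 and mm10, names of 1 build, while aligner, counter, annotation release and strand setting are not given in these sources. RNA was taken up in Trizol and libraries made with a SMARTer kit, per the labels' protocols. Of 42794 complete gene lines 31784 had a value above 0 in some library. FPKM times gene length gave whole multiples of 1 step per library for 100% of values up to 200 steps (tolerance 0.05 of a step), which gave the reads.

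From these values log2(FPKM + 1) was fitted with limma 3.58.1 (limma-trend, R 4.3.3), with a mean per group over 17 libraries and Benjamini-Hochberg adjustment over genes of at least 1 FPKM in 4 libraries. The pseudocount understates changes of low genes. The steps were tested on simulated data. Alternatives covered the pseudocount, filter, scaling, variance model, groups fitted and libraries left out. The members and lists were chosen with earlier results of these data known. Named by rule were all members, Atp6ap2, Agtrap, Gcgr, each gene of the lists of other renin-angiotensin genes, brush-border peptidases and renin control genes that passed in any comparison, and the 3 genes most like each tested member. A gene of the list of other renin-angiotensin genes is not reported here and was left out of that list's counts. No p was adjusted over the members alone. Replicate numbers are not shared between groups. Pairs of replicates differed by more than counting noise (chi-square per degree of freedom at least 7.135), so each library was counted once. Marker lists for mast cells, macrophages, fibroblasts, podocytes, fat and urothelium were also read. Only 1 of the 5 mast cell markers was tested, and it fell in Ctr shRNA against control. Of 4 tested macrophage markers 2 rose and 1 fell there, where 3.58% of all tested genes rose and 3.91% fell. In the libraries labelled Gcgr shRNA against control 1 macrophage marker rose, where 1.42% of all tested genes did. Nothing is read from these counts. Of the tested fibroblast, podocyte, fat and urothelial markers 0 passed.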

Additional observations from a re-analysis of the deposited data

Results flagged for a closer look

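Mme in control 41 was 16.1 FPKM, far above the other 3 control libraries, which lay between 13.02 and 13.4 FPKM. The gap to its nearest neighbour was 0.885 of the group's range. It was 1 of 24 groups of libraries examined (8 members in 3 groups), and chance marks about 1 in 20 of them. Without control 41 the fall of Mme in Ctr shRNA against control kept its call.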

How the results depend on the processing

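The fall of Ace and of Mme in Ctr shRNA against control kept its call in all 28 alternatives, and Agt in 23 of 28. Members called in Ctr shRNA against control numbered 2 to 4 over these alternatives, and 0 were called between the disease-labelled groups in any. In the libraries labelled Gcgr shRNA against control the main count of members was 1. It was 0 without a filter on low values, 4 with array weights, 3 with only 2 groups fitted, 2 without Ctr shRNA 20 and Gcgr shRNA 31 together, and 0 to 2 with single libraries left out. The count of other renin-angiotensin genes in Ctr shRNA against control, 1 in the main analysis, was 0 without a filter, 2 with quantile normalization, with array weights and without both of those libraries, and 0 to 2 with single libraries left out. For the libraries labelled Gcgr shRNA against control it was 1 with quantile normalization and with array weights. Over all genes, calls in Ctr shRNA against control numbered 994, and 597 without a filter, 2087 with array weights and 456 to 1264 with single libraries left out. In the libraries labelled Gcgr shRNA against control they numbered 268, and 155 without a filter, 154 at a mean of 5 FPKM or more, 1070 with array weights, 438 with 2 groups fitted and 103 to 348 with single libraries left out. Between the disease-labelled groups they numbered 0, and 1 at a pseudocount of 0.1, at a mean of 5 FPKM or more, with limma voom on recovered reads and with 2 groups fitted, and 0 to 3 with single libraries left out. Apart from the changes in testing burden and sample number that these settings make, the cause was not tested.

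Differences near 0 changed sign. In Ctr shRNA against control quantile normalization gave log2 values of -0.011 for Ren1 and -0.0056 for Agtrap. Between the disease-labelled groups Atp6ap2 was at -0.027 with equal summed FPKM, -1.7e-05 with quantile normalization and -0.044 without Ctr shRNA 20 and Gcgr shRNA 31, where Ren1 was at -0.16 and Agtr1a at -0.029, and array weights gave Agtr1a -0.0064. In the libraries labelled Gcgr shRNA against control Agtrap was at -0.043 with equal summed FPKM and -0.029 with quantile normalization, and Anpep was at 0.031 without both libraries. With single libraries left out, Ctr shRNA against control ranged from -0.37 to 0.24 for Ren1 and -0.0075 to 0.098 for Agtrap. Between the disease-labelled groups the ranges were -0.0055 to 0.10 for Agtr1a, -0.089 to 0.022 for Agtrap, -0.023 to 0.046 for Atp6ap2 and -0.093 to 0.0054 for Mas1. Against control the libraries labelled Gcgr shRNA ranged from -0.017 to 0.051 for Agtrap, -0.069 to 0.031 for Anpep and -0.10 to 0.52 for Ren1. The lists of genes most like each member shared 0 to 2 of 3 names with the main list without Ctr shRNA 20, and 1 or 2 without subtracting group means. Depth limits Agtr1b and Mas1. No paired analysis was possible because the groups share no replicate number.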
